A study of Mimachlamys nobilis with 6 samples.

Results

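The adductor muscle closes the shell of a scallop and, like muscle in other animals, devotes much of its messenger RNA to a small set of transcripts. Below the very highest of these lies a broad shelf of abundant transcripts, described here. Its members were chosen by their measured level: gene IDs were ranked by mean FPKM over 6 libraries, a level in which fragments are divided by gene length and library size, and ranks 11 to 200 were taken. IDs were then left out if their highest library hardly exceeded their lowest. They were also left out if the libraries separated completely, with a difference of mean log2(FPKM + 1) of at least 1, between the groups or between control replicates 1 and 3 with RNAi replicate 1 and the other 3 libraries. Of 30231 IDs, 190 held ranks 11 to 200 and 178 of these were members.

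The muscle was that of the bivalve Mimachlamys nobilis, of the QN Orange scallops aged 1 year, with 3 control libraries without RNA interference (RNAi) and 3 libraries with RNAi against VPS29. RNAi degrades messenger RNA that matches an introduced double-stranded RNA, and VPS29 belongs to retromer, a complex that retrieves membrane proteins from endosomes. The labels give neither dose, delivery and time after RNAi, nor the number of animals behind a library. The labels speak of RNA from each tank without saying which tank gave which library, so the spread between libraries may be partly technical.

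The transcripts that dominate striated muscle in animals generally encode the contractile filaments, the enzymes that supply ATP and the ribosomal proteins that make these. Which of the members do so is not stated here, because the files give IDs without gene names. No role is therefore assigned to any ID, the tissue could not be checked against marker genes, and the VPS29 transcript was not checked. Most IDs name an assembly contig and a running number on it, and these, the levels, and the gene length behind each FPKM are what could be described. For all 178 members the length and the whole reads could be worked back from the FPKM. In bulk muscle, fewer cells of a type and less RNA per cell cannot be told apart.

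The 12 IDs left out comprised 8 that separated the groups, 4 higher and 4 lower in RNAi muscle, and 4 that separated the other split. None was left out for steadiness. Just above the upper rank limit, evm.TU.Contig1357.4 at rank 10 had a mean of 5837 FPKM, against 4577 FPKM for evm.TU.Contig243.9 at rank 11. At the lower limit, evm.TU.Contig450.34 at rank 200 had 204.3 FPKM and the next ID, evm.TU.Contig628.29, had 203.5 FPKM. Nothing in the levels marked the limit there. Among IDs whose groups did not overlap, the member closest to the exclusion was evm.TU.Contig483.23 at a log2 difference of -0.83, and the nearest ID left out was at -1.29. For the other split these values were -0.85 for evm.TU.Contig359.8, a member, and -1.01 for evm.TU.Contig222.18, which was left out. The steadiest member, evm.TU.Contig313.14, had a ratio of 1.32 between its highest and lowest library.

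Levels among the members ran down a long slope. Mean levels ranged from 4577 to 204.3 FPKM with a median of 538 FPKM. A mean of at least 1000 FPKM was reached by 42 members, 53 lay between 500 and 1000 FPKM, and 83 lay under 500 FPKM. A member had between 382 and 651046 recovered reads in a library, with a median of 13747. Of the 178 members, 132 kept a rank of 11 to 200 in each library taken alone. In at least 1 library, 4 entered the top 10 and 42 went below rank 200, as far as rank 449.

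**Figure D1:**
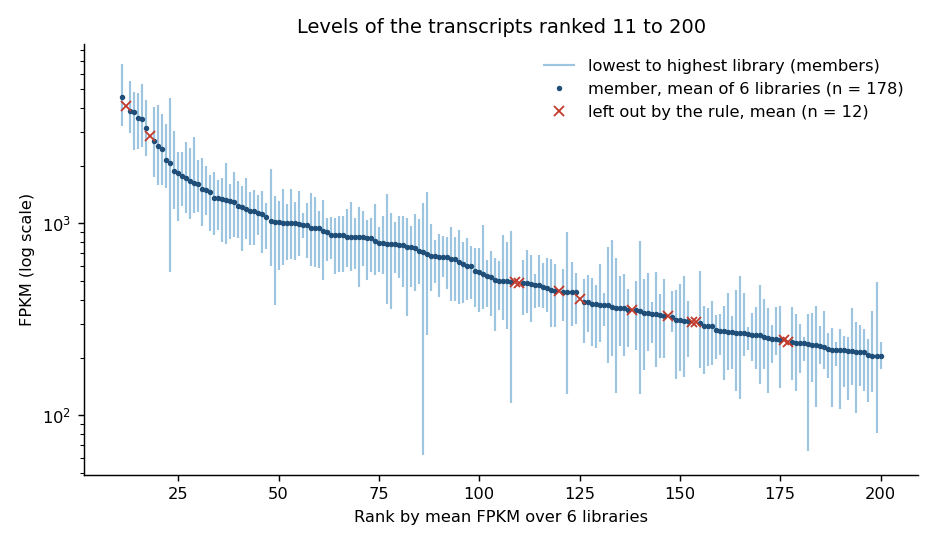
FPKM on a log scale against rank by mean FPKM over 6 libraries; points are means of the 178 members, vertical lines run from the lowest to the highest library, and crosses mark the means of the 12 IDs left out. The means descend from 4577 to 204.3 FPKM, while single members span a median ratio of 2.15 between libraries and up to 20.7.

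The highest member, evm.TU.Contig243.9, had 5896, 4122 and 6804 FPKM in control replicates 1, 2 and 3 and 3212, 3288 and 4141 FPKM in RNAi replicates 1, 2 and 3. Its groups overlapped, since RNAi replicate 3 exceeded control replicate 2. The next, evm.TU.Contig362.107, had 4465, 2941 and 5539 FPKM in the controls, and 3175, 3190 and 3856 FPKM after RNAi, with control replicate 2 as its lowest library. For evm.TU.Contig1430.10, a short gene of 255 bases, levels were 4410, 3920 and 2945 FPKM in the controls, and 2406, 4372 and 4838 FPKM after RNAi. RNAi replicate 1 was thus lowest and RNAi replicate 3 highest. For evm.TU.Contig79.64 the values were 3088, 4755 and 2448 FPKM in the controls, and 3133, 4109 and 3670 FPKM after RNAi, with the extremes both in control. The longest of these top members, evm.TU.Contig471.40 with 6743 bases, had 5313, 2858 and 4840 FPKM in the controls, and 2696, 2507 and 2744 FPKM after RNAi. Its groups did not overlap, by a narrow gap between control replicate 2 and RNAi replicate 3. The last of the 6, evm.TU.Contig330.43, had 2555, 3321 and 2287 FPKM in the controls, and 2243, 4380 and 4118 FPKM after RNAi. Within each of the 6 libraries evm.TU.Contig243.9 exceeded evm.TU.Contig362.107, though narrowly in RNAi replicates 1 and 2. The other neighbouring pairs among these 6 members changed order between libraries.

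At the other end, evm.TU.Contig2046.3 had 81.4, 136 and 497 FPKM in the controls, and 207, 218 and 87.7 FPKM after RNAi. Its rank of 199 rested on control replicate 3. The last member, evm.TU.Contig450.34, had 174.6, 186.8 and 180.3 FPKM in the controls, and 203.6, 240.0 and 240.6 FPKM after RNAi, with no overlap and a narrow range.

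Together the members held 23.4% ± 5.43 of all recovered reads (SD, n = 6 libraries). The lowest share was 15.03% in control replicate 3 (95% Wilson interval 15.02% to 15.05%) and the highest 29.25% in RNAi replicate 3 (29.23% to 29.27%). Counting error alone is covered by these intervals. Of the summed FPKM the members held 25.6%, 30.1% and 14.6% in the controls, in the order 1, 2 and 3, and 21.3%, 33.6% and 34.3% after RNAi. The 10 most abundant genes held 73.7% in control replicate 3, where the members' share was lowest, and 43.0% and 43.7% in RNAi replicates 2 and 3, where it was highest. Outside those 10 genes the members held 62.3%, 59.1% and 55.6% of the remaining FPKM in control and 51.5%, 58.9% and 61.04% in RNAi muscle. This last share does not depend on how a library is scaled. It was highest in control replicate 1 and lowest in RNAi replicate 1, and the groups overlapped.

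Those same libraries were the extremes for most members. On the deposited FPKM, 137 of the 178 members (77.0%) were lowest in RNAi replicate 1 and 105 (59.0%) were highest in control replicate 1. Both held for 96 members. Among the 9715 genes tested, meaning those with at least 1 FPKM in at least 3 libraries, 15.4% were lowest in RNAi replicate 1, 19.2% were highest in control replicate 1 and 5.57% were both. The median member lay 0.39, 0.06 and -0.06 from its own mean on the log2 scale in the controls, and -0.56, -0.03 and 0.18 after RNAi. Over all genes tested these medians stayed between -0.02 and 0.04. For the 800 genes next in rank they were 0.18 in control replicate 1 and -0.18 in RNAi replicate 1, between the members and the rest. Control replicate 1 and RNAi replicate 1 carry opposite group labels but the same number, and each is 1 library.

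Which library was highest or lowest depended on the scaling, because a scaling moves all genes of a library together. When values were rescaled to the same sum in each library (TPM), 14 members were lowest in RNAi replicate 1 and 148 in control replicate 3, and 99 were highest in RNAi replicate 3. Scaling to total recovered reads gave 17, 145 and 104. The position of the members relative to the other genes of the same library could hardly change, because each of these scalings multiplies a library by 1 factor. Only the 1 FPKM added before the log lets it move. In RNAi replicate 1 the median deviation of the members minus that of all genes tested was -0.55 on deposited FPKM, -0.50 under TPM and -0.48 when scaled to all recovered reads. In control replicate 1 it was 0.36, 0.28 and 0.27. In RNAi replicate 3 it was 0.19, 0.24 and 0.26, and in control replicate 3 it was -0.08, -0.25 and -0.28. Quantile normalization forces the highest values of all libraries to match, and under it these offsets were -0.03 in RNAi replicate 1 and 0.02 in control replicate 1. RNAi replicate 1 also had the fewest recovered reads, 16150890 against 18709711 to 21546404 in the others, and the part of depth in this profile was not tested.

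**Figure D2:**
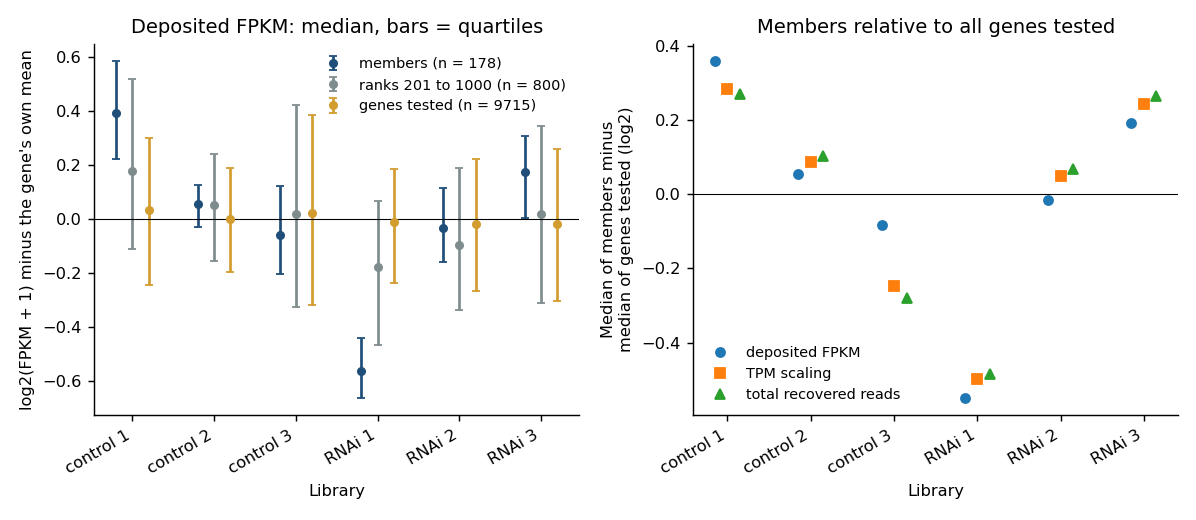
Left, median (points) and quartiles (bars) of log2(FPKM + 1) minus each gene's own mean, per library, for the 178 members, the 800 genes next in rank and the 9715 genes tested. Right, the members' median minus that of all genes tested under 3 scalings: RNAi replicate 1 is lowest under each, between -0.55 and -0.48. These scalings multiply a library by 1 factor, so their values are nearly alike by construction.

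The profile was commonest among the higher members. RNAi replicate 1 was the lowest library for 34 of 38 members (89.5%) at ranks 11 to 50 and for 45 of 50 (90.0%) at ranks 51 to 100. It was the lowest for 32 of 44 (72.7%) in the next 50 ranks and for 26 of 46 (56.5%) in the last 50. The median deviation in that library was -0.56, -0.57, -0.58 and -0.52 in the 4 bands, from high to low.

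Members were grouped by how their levels moved together, with average linkage on 1 minus Pearson's r of log2(FPKM + 1) over the 6 libraries and a limit of 0.5. The grouping used the members' own values, so the profiles below describe it and are not tested. The largest set held 124 of the 178 members (69.7%), with a median r of 0.87 between its members. Its median member lay at 0.45, 0.07 and -0.09 in the controls, and at -0.60, -0.06 and 0.22 after RNAi. RNAi replicate 1 was lowest for 122 of the 124 and control replicate 1 highest for 94. This set included evm.TU.Contig1430.10, evm.TU.Contig117.64, evm.TU.Contig324.55 and evm.TU.Contig104.113. At a limit of 0.1, its largest subset held 45 members whose levels followed each other closely. The median r in it was 0.96 and the median SD of a member's level relative to the subset was 0.10 on the log2 scale, while their mean levels ranged from 213 to 2431 FPKM. The extent of the movement still differed, and evm.TU.Contig352.50, with a ratio of 8.07 between its highest and lowest library, belonged to this subset. The 41 of these 45 whose IDs name a contig were spread over 37 contigs.

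The other sets were small, and their profiles differed from that of the main set. A set of 15 members, with evm.TU.Contig243.9, evm.TU.Contig362.107 and evm.TU.Contig471.40, had its median member highest in control replicate 3 at 0.63, with 0.41 in control replicate 1 and -0.45 in RNAi replicate 1. A set of 12, with evm.TU.Contig79.64, was lowest in control replicate 3 for 10 members, at a median of -0.52, and its median member was highest in control replicate 1 at 0.31, as in the main set. In a set of 8, with evm.TU.Contig330.43, RNAi replicate 2 was highest for 6 members at a median of 0.52, and control replicates 1 and 3 and RNAi replicate 1 were all below the mean. A set of 7 was highest in control replicate 3 for 5 members and lowest in RNAi replicate 3 for 5. In a set of 6, RNAi replicate 1 was the highest library for 4 members and control replicate 1 the lowest for 5, the reverse of the main set. The remaining 6 members formed a set of 4 and 2 single profiles.

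**Figure D3:**
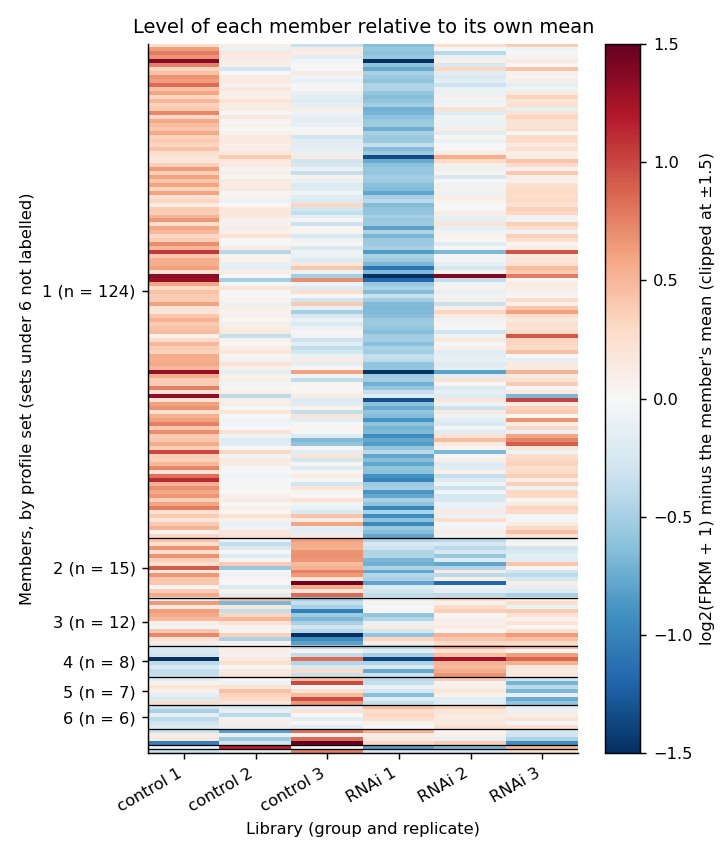
Each line is 1 of the 178 members and each column a library; colour shows log2(FPKM + 1) minus the member's own mean, clipped at 1.5, with black lines between profile sets. The set of 124 is red in control replicate 1 and blue in RNAi replicate 1, and the smaller sets below it show other patterns, such as the set of 12 with its lowest values in control replicate 3.

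The members were short genes. Their inferred length had a median of 957 bases and ranged from 157 to 7320, against a median of 1944 bases over the genes tested. Of the members 92 (51.7%) were under 1000 bases, against 23.7% of the genes tested. The length enters FPKM as a divisor, and length was not used by the rule otherwise. The set of 124 had a median length of 781 bases and the other 54 members one of 1586 bases. Of the 92 shorter members 77 (83.7%) were in the set of 124, as were 47 of the 86 longer ones (54.7%). RNAi replicate 1 was lowest for 82 of the 92 shorter members (89.1%) and for 55 of the 86 longer ones (64.0%). Among all genes tested it was lowest for 21.6% of 2304 shorter genes and 13.4% of 7408 longer ones. Across the 178 members, length and the deviation in RNAi replicate 1 were weakly related, with Pearson's r of 0.14 on log2 length and Spearman's rho of 0.21. All these points share the same library, and members are not independent replicates.

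Most members differed by at least 2-fold between their extreme libraries, and a few by a much larger factor. The ratio of the highest to the lowest library had a median of 2.15 and quartiles of 1.93 and 2.53, against a median of 2.58 over the genes tested. It was under 2 for 62 members, 2 to 4 for 104 and at least 4 for 12. Of these 12, RNAi replicate 1 was the lowest library for 7 and control replicate 1 the highest for 6.

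The widest range belonged to evm.TU.Contig53.136, with 1242, 487 and 342 FPKM in the controls, and 62.0, 1281 and 832 FPKM after RNAi. RNAi replicates 1 and 2 of the same group were its lowest and highest libraries, a ratio of 20.7. For evm.TU.Contig352.50, the values were 4504, 1848 and 1689 FPKM in the controls, and 558, 1821 and 1890 FPKM after RNAi. The other 4 libraries lay close together between control replicate 1 and RNAi replicate 1. For evm.TU.Contig1023.9 the values were 116, 421 and 685 FPKM in the controls, and 148, 912 and 703 FPKM after RNAi, so both libraries numbered 1 were low. Ratios of 7.04, 6.26 and 6.11 were found for evm.TU.Contig1048.7, evm.TU.Contig483.58 and evm.TU.Contig2046.3.

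Near the steady limit, evm.TU.Contig313.14 had 257, 272 and 218 FPKM in the controls, and 288, 287 and 271 FPKM after RNAi. For evm.TU.Contig324.54 the values were 255, 219 and 251 FPKM in the controls, and 255, 249 and 192 FPKM after RNAi, a ratio of 1.33. A ratio of 1.34 was found for evm.TU.Contig831.10 and of 1.35 for evm.TU.Contig1495.9, whose level was far higher at 957 ± 105 FPKM without RNAi and 998 ± 130 FPKM with it (SD, n = 3 each). RNAi replicate 1 was the lowest library for none of these 4.

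The study's own comparison is RNAi against control muscle. The rule left out members by this same contrast, so the members' differences are descriptions and no test of them is given. In limma over all 9715 genes tested, 0 genes (0%) passed a Benjamini-Hochberg adjusted p of 0.05 and 1654 (17.0%) had an unadjusted p under 0.05. With voom on the recovered reads of 9712 genes these counts were 0 and 1660. It used the library sizes behind the deposited FPKM, so it kept the deposited scaling. The median log2 difference of the members, RNAi minus control, was -0.28, with quartiles of -0.47 and -0.09, and that of all genes tested was -0.05. The mean log2(FPKM + 1) was lower in RNAi muscle for 150 members (84.3%, against 54.2% of genes tested). Without RNAi replicate 1 this count was 108 with a median of -0.07, without control replicate 1 it was 133 with -0.15, and without both it was 76 with 0.07. It was 17 members under TPM and 20 under total recovered reads, where the median of all genes tested moved to 0.49 and 0.42 and that of the members to 0.39 and 0.35. Both of these scalings moved all genes together. The library sizes behind the deposited FPKM were 0.74 to 1.47 times the recovered reads in control. In RNAi muscle they were 1.51 to 1.67 times, so each RNAi library was divided by more per read than any control. The median of the members minus that of all genes tested was -0.23 on deposited FPKM, -0.10 under TPM and -0.07 with total recovered reads. These scalings can move this difference only through the 1 FPKM added before the log. Without RNAi replicate 1 this difference was -0.03, without control replicate 1 it was -0.10 and without both libraries it was 0.10. Quantile normalization gave a median of -0.03 for the members and a difference of -0.02.

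The groups did not overlap for 25 members (14.0%, against 22.7% of genes tested), of which 19 were lower (10.7% against 12.2%) and 6 higher (3.37% against 10.5%) in RNAi muscle. A difference of at least 2-fold was found for 2 members (1.12% against 6.93%), both lower in RNAi muscle. Their groups overlapped by the rule, which had left out 8 IDs with no overlap and at least this difference. Some of the 4 IDs left out for the other split also differed by at least 2-fold between the groups, with log2 differences down to -2.60. The members' shares are thus lowered by the rule and are not directly comparable with those of the genes tested. For evm.TU.Contig483.58 the values were 388, 294 and 808 FPKM in the controls, and 168, 129 and 312 FPKM after RNAi, which gave a log2 change of -1.25 ± 0.46 (SE). Only control replicate 2 and RNAi replicate 3 overlapped. For evm.TU.Contig1048.7 they were 906, 329 and 553 FPKM in the controls, and 129, 208 and 515 FPKM after RNAi, which gave a log2 change of -1.19 ± 0.55 (SE). Here RNAi replicate 3 lay within the control range. In the other direction, evm.TU.Contig247.7 had 241, 150 and 108 FPKM in the controls, and 260, 274 and 283 FPKM after RNAi, with no overlap and a log2 difference of 0.79 ± 0.32 (SE). For evm.TU.Contig1023.9, whose values are given above, the log2 difference was 0.50 ± 0.81 (SE), smaller than its error.

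Members that shared a contig did not, as a rule, follow each other more closely than other members did. Of the members, 169 had an ID that names a contig, and they lay on 128 contigs. A single member lay on 104 of these contigs, while 24 contigs held 65 members between them. Contigs with members were large, with a median of 19.5 genes tested against 4 over the 820 contigs with any. A contig with more genes is likelier to hold a member whichever genes are drawn, so this contrast says nothing about the members. Over all contigs, 169 of 7891 genes tested were members. The highest count was 5 members on contig 0, which holds 117 genes tested. Contigs 74, 104, 117 and 324 held 4 each, of 73, 87, 49 and 13 genes tested. Contig 324 was thus the densest of these 5. On the contigs of the 10 most abundant genes there were 2 members, evm.TU.Contig251.45 and evm.TU.Contig1357.5.

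On contig 324, evm.TU.Contig324.55 had 2648, 1800 and 1617 FPKM in the controls, and 1128, 1435 and 1709 FPKM after RNAi. For evm.TU.Contig324.58 the values were 1279, 1061 and 892 FPKM in the controls, and 660, 951 and 1009 FPKM after RNAi, and for evm.TU.Contig324.47 RNAi replicate 1 was again lowest at 132 FPKM. Between these 3, r was 0.91 to 0.94. The fourth, evm.TU.Contig324.54, stands next to number 55 by its own number, yet it was among the 4 steadiest members and its r with number 55 was -0.09, or 0.54 under TPM.

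On contig 104, evm.TU.Contig104.113 had 2805, 1623 and 1529 FPKM in the controls, and 1134, 1257 and 1421 FPKM after RNAi, with no overlap. For evm.TU.Contig104.15 the order was another, with 196, 252 and 319 FPKM in the controls, and 334, 316 and 259 FPKM after RNAi, and r between the pair was -0.91, or 0.11 under TPM. The ratio of the former to the latter, which no scaling alters, was 14.3, 6.45 and 4.79 in the controls, against 3.39, 3.98 and 5.49 after RNAi. Between them in level, not in number, lay evm.TU.Contig104.100, at 800 to 1041 FPKM in control and 638 to 1068 FPKM in RNAi muscle. So did evm.TU.Contig104.14, at 469 to 546 and 362 to 504 FPKM. Numbers 14 and 15 are consecutive, and their r was -0.32, or 0.74 under TPM.

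On contig 117, evm.TU.Contig117.64 had 3040, 1905 and 1808 FPKM in the controls, and 1192, 1533 and 1818 FPKM after RNAi. Its r was 0.91 with evm.TU.Contig117.106. With evm.TU.Contig117.62, whose number is only 2 away, it was -0.06, or 0.01 under TPM. The latter was highest in control replicate 3 at 433 FPKM and between 204 and 308 FPKM elsewhere. The fourth, evm.TU.Contig117.164, was highest in RNAi replicate 3 at 484 FPKM and lowest in RNAi replicate 1 at 171 FPKM.

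On contig 0, evm.TU.Contig0.129 had 1854, 1267 and 1130 FPKM in the controls, and 849, 1187 and 1447 FPKM after RNAi. Number 342, evm.TU.Contig0.342, followed it most closely of all pairs on a contig, at an r of 0.99. The ratio of the first to the second was 1.34, 1.30 and 1.43 in the controls, against 1.44, 1.37 and 1.35 after RNAi. Their numbers are 213 apart. By contrast evm.TU.Contig0.128, consecutive to number 129, was highest in control replicate 3 at 366 FPKM and had an r of 0.04 with it, or 0.50 under TPM. The other members there were evm.TU.Contig0.13, lowest in RNAi replicate 2 at 599.8 FPKM and highest in control replicate 3 at 1433 FPKM, and evm.TU.Contig0.61, at 215.6 and 552.5 FPKM in its lowest and highest libraries. On contig 74, all of evm.TU.Contig74.14, evm.TU.Contig74.261, evm.TU.Contig74.51 and evm.TU.Contig74.54 were lowest in RNAi replicate 1, at 228.8, 134.4, 140.6 and 156.5 FPKM. Of all members 77.0% had that lowest library, and r between those on contig 74 ran from 0.20 to 0.85.

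**Figure D4:**
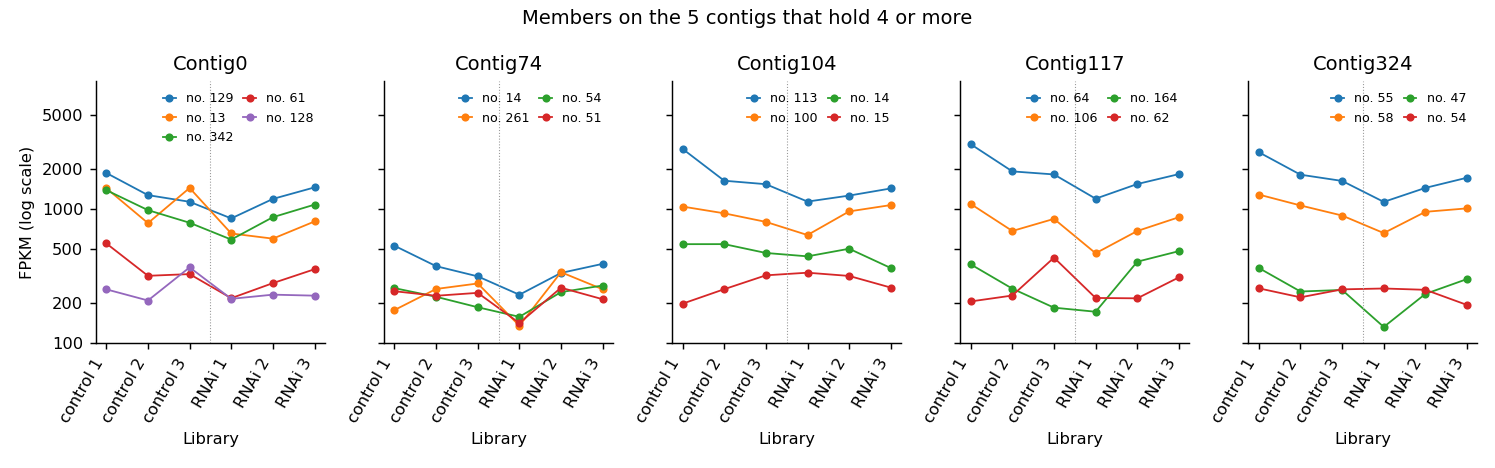
FPKM on a log scale in each library for the members on the 5 contigs with 4 or more; lines join the values of 1 member, numbers are those in its ID, and the dotted line separates control from RNAi libraries. On contigs 0, 104 and 117 members with near or consecutive numbers follow different lines. All 4 on contig 74 are lowest in RNAi replicate 1, as are 77.0% of all members.

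Over all 65 pairs of members on a shared contig the median r was 0.55, from -0.94 to 0.99, against 0.64 over all 15753 pairs of members. An r above 0.9 was found for 16.9% of the pairs on a shared contig and 20.1% of all pairs. An r below 0 was found for 13 of the 65 and for 18.4% of all pairs. For the 6 pairs with consecutive numbers the median was 0.01, from -0.32 to 0.82, and 5 of the 6 were under 0.5. Under TPM the medians were 0.74 on a shared contig, 0.82 over all pairs and 0.62 for consecutive numbers, in the same order. Without RNAi replicate 1 they were 0.27 on a shared contig and 0.41 over all pairs. Within the set of 124, the 29 pairs on a shared contig had a median of 0.85 and all pairs one of 0.87. Each r is over 6 libraries that all pairs share, and the numbers are taken to follow the order of genes on a contig.

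After the pair on contig 0, the highest r on a contig was 0.98 for evm.TU.Contig119.110 with evm.TU.Contig119.112, and 0.98 for evm.TU.Contig132.187 with evm.TU.Contig132.124. The ratio of the first of these pairs lay between 1.21 and 1.39 in the 6 libraries. That of the other lay between 3.29 and 3.93. At the other end, evm.TU.Contig326.53 and evm.TU.Contig326.28 had an r of -0.94, or 0.05 under TPM, and control replicate 3 was the lowest library of the former, at 237.8 FPKM, and the highest of the latter, at 348.0 FPKM.

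**Figure D5:**
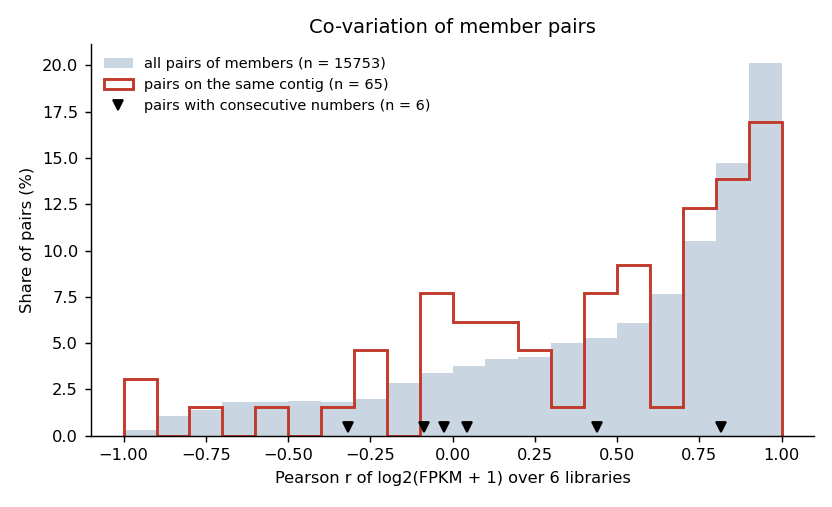
Share of member pairs (%) by Pearson's r of log2(FPKM + 1) over 6 libraries, for all 15753 pairs (filled), the 65 pairs on a shared contig (outline) and the 6 pairs with consecutive numbers (triangles). Pairs on a contig spread over the same range as all pairs, and consecutive pairs lie between -0.32 and 0.82.

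The most abundant gene of the muscle, with an inferred length of 1275 bases, had another profile than most members. Its level was 293480, 154326 and 515859 FPKM in the controls, and 178745, 105849 and 112339 FPKM after RNAi, highest in control replicate 3. The median r of a member with it was 0.09, with 79 of 178 below 0 and 1 above 0.9. That member was evm.TU.Contig483.23, at 298, 179 and 363 FPKM in the controls, and 157, 153 and 143 FPKM after RNAi, with an r of 0.95. The next most like it were evm.TU.Contig363.6 at 0.89 and evm.TU.Contig471.40 at 0.89. Under TPM these values were 0.41, -0.18 and -0.38, so the likeness depended on the scaling. Least like it were evm.TU.Contig313.14 at -0.88, evm.TU.Contig134.84 at -0.87 and evm.TU.Contig359.8 at -0.83, and these were -0.83, -0.87 and -0.97 under TPM. Under TPM 173 of 178 members had an r below 0, with a median of -0.88, and the gene is itself a large part of the sum that TPM holds fixed. The values of evm.TU.Contig313.14 and evm.TU.Contig134.84 were then no lower than that median. All of these were computed over 6 libraries.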

How the data were processed

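The deposited values are FPKM per gene ID for each library, made by the authors. No header states the unit, which was inferred from the values and from the letters in the names of the deposited tables. The tools are HISAT2 2.0.4 and HTSeq 0.9.1, per the submitters' processing notes, with no role given. Which build, annotation and strandedness were used is not given in the sources used here. Overlapping or near-identical genes may share reads. The members and the rule for named genes were chosen with earlier results of these data known.

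FPKM were used as deposited. Since FPKM is reads divided by length and library size, a single length and 6 sizes must turn a gene's values into whole reads, which held for 23403 of 23408 genes above 0 (within 0.01 read, 99.98%). Reads with a common factor come out too small, with too short a length. The sizes found were 0.97, 1.47 and 0.74 times the recovered totals in control replicates 1, 2 and 3. In RNAi replicates 1, 2 and 3 they were 1.51, 1.67 and 1.57 times. The totals were 16150890 to 21546404 reads, and why the sizes differ was not tested. The steps were tested on simulated data.

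Group differences came from limma 3.58.1 (R 4.3.3; lmFit and eBayes, trend and robust both on), fitted to log2(FPKM + 1). This scale understates the change of low genes. A gene entered if 3 or more libraries reached 1 FPKM. All 178 members passed this filter. Named members are the 6 highest and 2 lowest by mean, the 6 widest and 4 narrowest ratios, 2 largest differences each way, those on the contigs with most members, 4 pairs on a contig and the 3 most and least like the most abundant gene. As 4 contigs tied, 5 were described instead of 3. Alternatives were each library left out, TPM and quantile scaling, a pseudocount of 0.1, other filters, eBayes without trend and robust, a replicate block and other forms of the rule. Scaling to total recovered reads, centring, voom, leaving out 2 libraries and the profile sets were added after the data had been seen. All else was done in Python 3.11.15 (pandas 2.3.3, numpy 2.4.6, matplotlib 3.10.9, scipy 1.17.1).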

Additional observations from a re-analysis of the deposited data

How the results depend on the processing

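Several results on the members moved with the scaling or with single libraries, and the cause was not tested. The median log2 difference of the members (-0.28) was -0.44 to -0.07 with 1 library left out, 0.39 under TPM, -0.026 after quantile normalization, 0.35 under total recovered reads and 0.071 without control replicate 1 and RNAi replicate 1 together. The members with a lower mean log2(FPKM + 1) in RNAi muscle (150) numbered 108 to 154 with 1 library left out. They numbered 17 (TPM), 20 (total recovered reads), 97 (quantile) and 76 (without both libraries). Groups that did not overlap (25 members) became 30 to 69 with 1 library left out, which is easier to meet with fewer libraries; 47 without control replicate 2, 44 without control replicate 3 and 69 without RNAi replicate 3. They became 13 (TPM), 13 (total recovered reads) and 60 (without both libraries). Differences of at least 2-fold (2 members) became 2 to 9 with 1 library left out (9 without control replicate 2, 4 without control replicate 3, 4 without RNAi replicate 2, 7 without RNAi replicate 3), 12 (TPM), 9 (total recovered reads) and 7 (without both libraries).

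The median r of all pairs (0.64) was 0.41 (without RNAi replicate 1) to 0.76, and 0.035 under quantile normalization and 0.22 without both libraries. On a shared contig (0.55) it was 0.27 (without RNAi replicate 1) to 0.70, 0.0031 (quantile) and -0.013 (without both). The set of 124 became 88 to 146 with 1 library left out and 35 under quantile normalization. Members lowest in RNAi replicate 1 (137) became 14 (TPM), 17 (total recovered reads) and 32 (quantile), and those highest in control replicate 1 (105) became 15, 16 and 41. Their offsets from the genes tested became -0.029 and 0.024 under quantile normalization. The members' share of summed FPKM (26.6% on average) stayed within 25.04% to 28.98% in each alternative run made for it. TPM cannot change a share, and runs with a library left out average the remaining shares. In single libraries the share ran from 14.6% to 34.3%. Ranking by median FPKM gave 179 members (175 shared), TPM 148 (141 shared) and a steady limit of 1.5 gave 172 (172 shared).

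Of all genes tested, 0 passed an adjusted p of 0.05 in limma (1654 at an unadjusted p under 0.05). Leaving out 1 library gave 0 to 6 (6 of them without RNAi replicate 1), and a filter of 5 FPKM gave 6. The count was 161 under TPM and 105 under total recovered reads, where the median log2 difference of all genes tested was 0.49 and 0.42. Under TPM, 2103 genes at an unadjusted p under 0.05 were higher in RNAi muscle and 122 lower. Under total recovered reads these were 2017 and 136. At an unadjusted p under 0.05, leaving out 1 library gave 914 (RNAi replicate 2) to 2189 genes, 1039 without RNAi replicate 3 and 716 with the filter of 5 FPKM. Same-numbered libraries did not deviate together over the genes tested (r = -0.04, 0.29 and -0.33), so the shared number was not treated as a pairing. With a replicate block 0 genes passed, 1511 had an unadjusted p under 0.05, and it left the median of the members at -0.28. In all 3 same-numbered comparisons 42 members (23.6%) differed in 1 direction, against 42.2% of genes tested. The IDs left out for separating the groups would have counted here. Of 384 values for 48 named members, 343 moved by less than the spread between replicates. The 41 that moved by more did so under TPM, out of 48 there. With 3 libraries per group, leaving out 1 cannot move a difference by more than this spread, so those runs could not fail. A pseudocount of 0.1 changes little at these levels. Of the values, 55 changed sign, 29 of them under TPM and 26 with 1 library left out.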
